A study of Mus musculus with 8 samples.

Results

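The mRNA levels of 9 photoreceptor transcription factors, *Otx2*, *Crx*, *Neurod1*, *Prdm1*, *Rorb*, *Nrl*, *Nr2e3*, *Thrb* and *Rxrg*, were examined in whole retinas of 4 control and 4 *Rbfox2*-deficient mice. The members were chosen by name as factors of rod and cone fate and maintenance. All 9 were found among the 17500 genes of the deposited count table, and all 9 were among the 16797 genes that passed the filter on low counts. Each library was made from the poly(A) RNA of 1 mouse aged 6 months on a C57BL/6J background. The *Rbfox2*-/- animals (M893, M901, M902 and M909; genotype label Rbfox2 KD) were *Rbfox2* fl/fl mice that carried a tamoxifen-activated Cre recombinase and were treated as adults. The controls, mice M833, M894, M896 and M898, were heterozygous *Rbfox2* fl/+ mice of the same age. By the study's methods tamoxifen in corn oil was a short course of oral doses, and the retinas were taken 4 months after it, whereas the label of each animal, controls included, speaks of a treatment of 4 months. The methods also name corn oil alone as a vehicle, and whether the control mice carried Cre or received tamoxifen or vehicle is not given in the sources used here. Rbfox2 is an RNA-binding splicing regulator that the study located by immunostaining in ganglion, amacrine and horizontal cells. The comparison therefore asks how photoreceptor regulators stood in a retina in which a gene of other neurons had been reduced.

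Photoreceptor identity is set by a small network of DNA-binding proteins. Otx2 starts the program in postmitotic precursors and switches on Crx, and both homeodomain proteins bind near most photoreceptor genes. Rorb and Nrl direct precursors to the rod fate, Nr2e3 acts below Nrl to silence cone genes in rods, and the nuclear receptors Thrb and Rxrg pattern the cone opsins. In the adult retina most of these factors remain on, since rods and cones need them to keep their own genes transcribed.

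The DNA just upstream of the transcription starts is shown first for the pair of members whose control and *Rbfox2*-/- values did not overlap, *Prdm1* and *Rxrg*, and for *Crx*, whose window holds the binding core of its own protein family. The windows are the 250 bases before RefSeq starts on GRCm38.p6, read 5′ to 3′ on the strand of the gene, with capitals marking a motif match. *Prdm1* lies at chr10:44458749-44458998 on the minus strand, *Rxrg* at chr1:167598112-167598361 (first start) and chr1:167618015-167618264 (second start) on the plus strand, and *Crx* at chr7:15879956-15880205 on the minus strand.

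Prdm1: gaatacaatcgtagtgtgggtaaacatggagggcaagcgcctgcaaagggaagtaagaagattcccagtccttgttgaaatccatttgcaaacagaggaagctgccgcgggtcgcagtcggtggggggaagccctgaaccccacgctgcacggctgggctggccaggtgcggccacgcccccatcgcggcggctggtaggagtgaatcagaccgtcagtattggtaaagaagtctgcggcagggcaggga
Rxrg first start: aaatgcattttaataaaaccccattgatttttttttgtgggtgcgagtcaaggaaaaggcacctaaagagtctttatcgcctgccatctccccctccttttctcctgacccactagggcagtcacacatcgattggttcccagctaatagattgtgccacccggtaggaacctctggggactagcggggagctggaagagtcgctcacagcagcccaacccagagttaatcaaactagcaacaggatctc
Rxrg second start: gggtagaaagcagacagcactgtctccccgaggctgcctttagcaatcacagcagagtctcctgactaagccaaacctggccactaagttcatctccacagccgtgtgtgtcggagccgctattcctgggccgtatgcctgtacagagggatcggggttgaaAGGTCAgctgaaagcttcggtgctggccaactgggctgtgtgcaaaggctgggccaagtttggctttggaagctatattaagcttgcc
Crx: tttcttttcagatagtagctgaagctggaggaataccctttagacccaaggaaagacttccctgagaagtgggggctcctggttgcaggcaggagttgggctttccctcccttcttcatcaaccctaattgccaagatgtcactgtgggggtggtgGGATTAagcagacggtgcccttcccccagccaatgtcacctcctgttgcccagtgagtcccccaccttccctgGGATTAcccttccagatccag

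The motifs searched on both strands were TAATCC, the OTX and CRX core, TGCTGA, an NRL half-site, AGGTCA, a nuclear receptor half-site, and CAGATG, an E-box. None of these 4 was read in the *Prdm1* window or in the first *Rxrg* window, whereas AGGTCA stood 88 bases before the second *Rxrg* start. The *Crx* window held the reverse complement of TAATCC, written GGATTA, at 94 and at 21 bases before the start. Of 15 windows for the 9 genes, 3 held TAATCC, 3 TGCTGA, 2 AGGTCA and 2 CAGATG. Those with TAATCC belonged to *Crx*, *Thrb* and *Otx2*, so *Crx* was not alone in holding the core of its own family. Among all 32851 promoter windows of this length the shares were 6.25% for TAATCC, 16.1% for TGCTGA, 14% for AGGTCA and 14.4% for CAGATG. A match describes letters only and no binding was measured.

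The libraries held 160630226 to 211283591 counts on genes, so that 3 counts, taken as the smallest detectable amount and covering counting error only, corresponded to 0.0144 to 0.0189 CPM, the counts of a gene relative to the normalized library size. Every member lay far above that level, with at least 1507 counts in each mouse. The targeted gene separated the groups, with 144 to 157 CPM of *Rbfox2* in the controls and 53.6 to 59.4 CPM in the *Rbfox2*-/- mice (log2 fold change -1.41, SE 0.046, edgeR quasi-likelihood adjusted p = 5.51e-07). Some libraries stood apart within the *Rbfox2*-/- group. M901 and M902 had 1439.7 and 1739 CPM of *Xist*, the RNA that coats the inactive X chromosome of females, against 1.71 to 2.22 CPM in the other 6 mice. M909 had 82.6 CPM summed over 7 surface epithelium genes, against 2.30 to 8.02 CPM in the other mice. Values of the members are given with and without these libraries where they moved the result. Since whole retinas were sequenced, fewer cells of a type and less RNA per cell cannot be told apart. The p-values of the group comparisons weigh the difference between the groups against the variation between mice.

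Per transcript length, the members spanned a wide range of levels. On the deposited FPKM scale, *Nrl* had the highest control mean (626 ± 16.3, SD, n = 4) and ranked 37 among all genes. It was followed by *Crx* at 456 ± 12.5 FPKM (rank 53) and *Nr2e3* at 353 ± 19.98 FPKM (rank 76), so the general photoreceptor factor stood between both rod factors. *Neurod1* at 138 ± 12.03 and *Otx2* at 113 ± 1.13 FPKM formed a middle tier. *Rorb* (55.0 ± 2.30) and *Thrb* (19.5 ± 0.917) came next, and *Rxrg* (4.05 ± 0.474) and *Prdm1* (2.38 ± 0.181) were the lowest in FPKM. Over all 8 mice no neighbours in this order overlapped except *Rxrg* and *Prdm1*, whose mouse values ran into each other. Levels of *Otx2*, *Neurod1* and *Nr2e3* carry a limit of counting, since *Otx2os1* and *Gm7616* lie antisense to *Otx2* and *Nr2e3* and *Cerkl* overlaps *Neurod1* on the same strand, and the strand setting of the counting is not given in the sources used here.

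**Figure D1:**
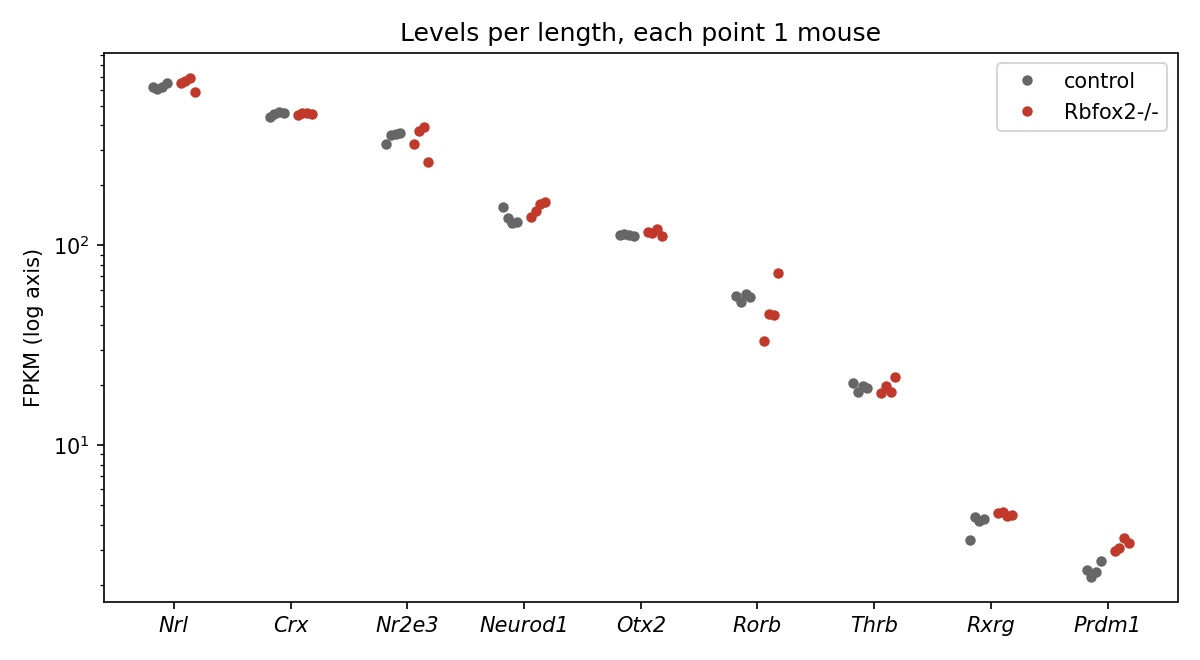
FPKM of the 9 members (log axis), each point 1 mouse, grey for control and red for *Rbfox2*-/-. *Nrl*, *Crx* and *Nr2e3* lie highest and *Rxrg* and *Prdm1* lowest, and the groups sit at nearly the same height for most members.

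No member differed between the groups at an adjusted p under 0.05 in the edgeR quasi-likelihood test, a threshold that 11 genes of 16797 passed (0.0655%). At an unadjusted p under 0.05, 2 of the 9 members were counted, *Prdm1* and *Rxrg*, both higher in *Rbfox2*-/- retinas, against 13.3% of all genes tested (6.42% in the higher and 6.87% in the lower direction). The same pair was the only one whose groups did not overlap, a state that 7.03% of all genes showed in either direction and 3.64% in the higher one. Of the 9 members, 7 had a higher and 2 a lower mean log2 level in *Rbfox2*-/- mice, while 8509 of all 16797 genes tested were higher. The median log2 fold change of the members was 0.06, against 0.0016 over all genes tested. Without M901 and M902 the median was 0.024, against -0.0043 over all genes, and *Crx* and *Nrl* turned slightly lower.

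**Figure D2:**
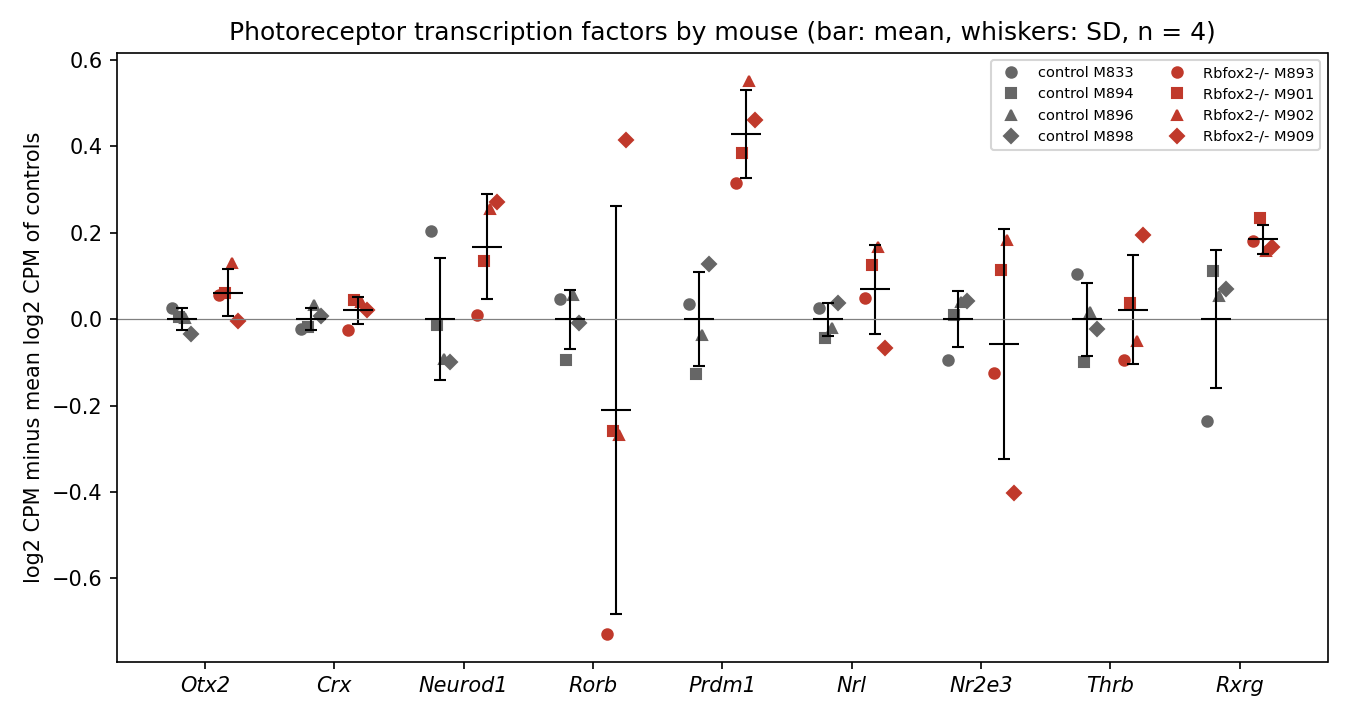
log2 CPM of each member minus the control mean, each symbol 1 mouse (grey control, red *Rbfox2*-/-), with mean and SD over n = 4. *Prdm1* and *Rxrg* separate the groups, and *Rorb* and *Nr2e3* are spread most widely among the *Rbfox2*-/- mice.

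*Prdm1* (Blimp1, chr10:44437177-44528501, GRCm38, minus strand) encodes a zinc finger repressor that stabilises the photoreceptor fate of precursors by holding back bipolar genes, and it is also known from lymphoid and epithelial cells. It had 12.4, 11.1, 11.8 and 13.3 CPM in the control mice (in the order M833, M894, M896, M898), and 15.1, 15.8, 17.8 and 16.7 CPM in the *Rbfox2*-/- mice (in the order M893, M901, M902, M909). Every *Rbfox2*-/- mouse lay above every control. The level was 34.5% higher (95% interval 20.6 to 49.9%, log2 fold change 0.43, SE 0.070), with an exact permutation p of 0.0286, the smallest that 4 mice against 4 allow. Its adjusted p was 0.0837 in the edgeR quasi-likelihood test, above the threshold, but 1.10e-05 with DESeq2, which called 2.77% of all genes, and 0.00128 with edgeR's likelihood ratio test, which called 0.976%. Without M901 and M902 the log2 fold change was 0.38 (edgeR unadjusted p = 0.00180, adjusted p = 0.486), and without M909 it was 0.42. Summed markers of lymphoid cells, of which *Cd3e* and *Jchain* were not in the table, were at 0.278 to 0.509 CPM in controls and 0.312 to 0.608 CPM in *Rbfox2*-/- mice, and their part in the *Prdm1* level was not tested.

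*Rxrg* (chr1:167598384-167639623, plus strand) encodes the retinoid X receptor gamma, which in cones helps to restrain short-wavelength opsin and is also present in ganglion cells. The controls had 7.24, 9.22, 8.85 and 8.96 CPM and the *Rbfox2*-/- mice 9.67, 10.03, 9.52 and 9.57 CPM in the same order. The groups did not overlap, yet the control M833 stood well below the rest. The level was 13.2% higher (95% interval 0.365 to 27.7%; edgeR unadjusted p = 0.0446, adjusted p = 0.368). Without M833 the log2 fold change went from 0.18 to 0.10 (edgeR unadjusted p = 0.0916). The unadjusted p also lay above 0.05, between 0.0565 and 0.107, without M896, M893, M901, M902 or M909 singly, and the log2 fold change without both M901 and M902 was 0.16 (edgeR unadjusted p = 0.165). The summed CPM of 9 ganglion cell markers was 713 in M833 and 1116 to 1168 in the other controls, against 902.03 to 1199 in *Rbfox2*-/- mice, and its part in the *Rxrg* level was not tested.

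The homeodomain factors had small differences. *Otx2* (chr14:48657677-48673819, minus strand), which starts the program and also marks bipolar cells, had 266, 262, 262 and 255 CPM in controls and 272, 273, 286 and 261 CPM in *Rbfox2*-/- mice. Of the latter, M893, M901 and M902, lay above every control and M909 lay within them. The log2 fold change was 0.06 with a 95% interval of -0.02 to 0.14, and without M909 it was 0.08 (edgeR unadjusted p = 0.0366, adjusted p = 0.253), in a fit where 17.8% of all genes had an unadjusted p under 0.05. Without M901 and M902 the log2 fold change of *Otx2* was 0.024 (edgeR unadjusted p = 0.594). With 1 surrogate variable it was 0.017 (edgeR unadjusted p = 0.703). *Crx* (chr7:15865947-15879968, minus strand), which drives rod and cone genes alike, had 1296, 1301, 1347 and 1324 CPM in controls and 1294.5, 1358, 1353 and 1337 CPM in *Rbfox2*-/- mice. Its coefficient of variation of 2.16% was the lowest of the 9 members among the *Rbfox2*-/- mice (1.76% in controls), and its log2 fold change of 0.02 had an interval of -0.06 to 0.10. A *Crx* level up to 7.37% higher in *Rbfox2*-/- retinas lies within its interval.

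*Neurod1* (chr2:79452521-79456751, minus strand) encodes a basic helix-loop-helix factor that sustains photoreceptors and thyroid hormone receptor expression in cones, and amacrine cells express it as well. Controls had 394, 339, 321 and 319.8 CPM and *Rbfox2*-/- mice 345, 376, 409 and 413 CPM. One control, M833, lay above the *Rbfox2*-/- mice M893 and M901, so the groups overlapped. The log2 fold change was 0.17 (95% interval -0.01 to 0.34, edgeR adjusted p = 0.397). Without M833 it was 0.24 (edgeR unadjusted p = 0.00537, adjusted p = 0.145), and without M893 0.22 (edgeR unadjusted p = 0.0186, adjusted p = 0.324). In these fits 17.6% and 12.5% of all genes had an unadjusted p under 0.05. Without any other single mouse the log2 fold change was 0.13 to 0.18, with an edgeR unadjusted p of 0.0697 to 0.148. It was 0.14 without M901 and M902 (edgeR unadjusted p = 0.195) and 0.10 with 1 surrogate variable (edgeR unadjusted p = 0.295).

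*Rorb* (chr19:18930605-19111196, minus strand) encodes a nuclear receptor upstream of Nrl in rods that horizontal and amacrine cells also use. Its controls were close together at 494, 449, 498 and 476 CPM, while the *Rbfox2*-/- mice had 289, 400.2, 398 and 638 CPM. M893, M901 and M902 lay below every control and M909 above every control. The coefficient of variation was 4.69% in controls and 34.2% in *Rbfox2*-/- mice, a value reached by 62 genes (0.610%) of 10168 with a mean of at least 10 CPM. The mean log2 fold change of -0.15 had a 95% interval of -0.57 to 0.27. Without M909, the mouse with the high surface epithelium sum, it was -0.40 (edgeR unadjusted p = 0.00421, adjusted p = 0.133), and without M893 it was -0.00080. Without M901 and M902 it was -0.050 (edgeR unadjusted p = 0.845). The part of the surface epithelium RNA in the *Rorb* level was not tested.

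*Nrl* (chr14:55518978-55524981, minus strand), the basic leucine zipper protein that fixes the rod fate, had 1572, 1498, 1524 and 1585 CPM in controls and 1599, 1684, 1735 and 1474 CPM in *Rbfox2*-/- mice. M893, M901 and M902 lay above all controls and M909 below all of them. Its log2 fold change was 0.07 (95% interval -0.05 to 0.19). It was 0.12 without M909 (edgeR unadjusted p = 0.0401, adjusted p = 0.260) and -0.011 without M901 and M902. *Nr2e3* (chr9:59942771-59960659, minus strand), the orphan receptor that represses cone genes in rods, had 656, 705, 720.0 and 721 CPM in controls and 642, 758, 795 and 529 CPM in *Rbfox2*-/- mice. M901 and M902 lay above every control and M893 and M909 below every control. Of the 10168 genes, 95 (0.934%) had 2 *Rbfox2*-/- mice above and 2 below every control, whichever mice these were. Its log2 fold change was -0.04 (95% interval -0.28 to 0.20), and -0.26 without M901 and M902 (edgeR unadjusted p = 0.0115, adjusted p = 0.689), a fit in which 6.01% of all genes had an unadjusted p under 0.05. Without M909 the value was 0.06.

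**Figure D3:**
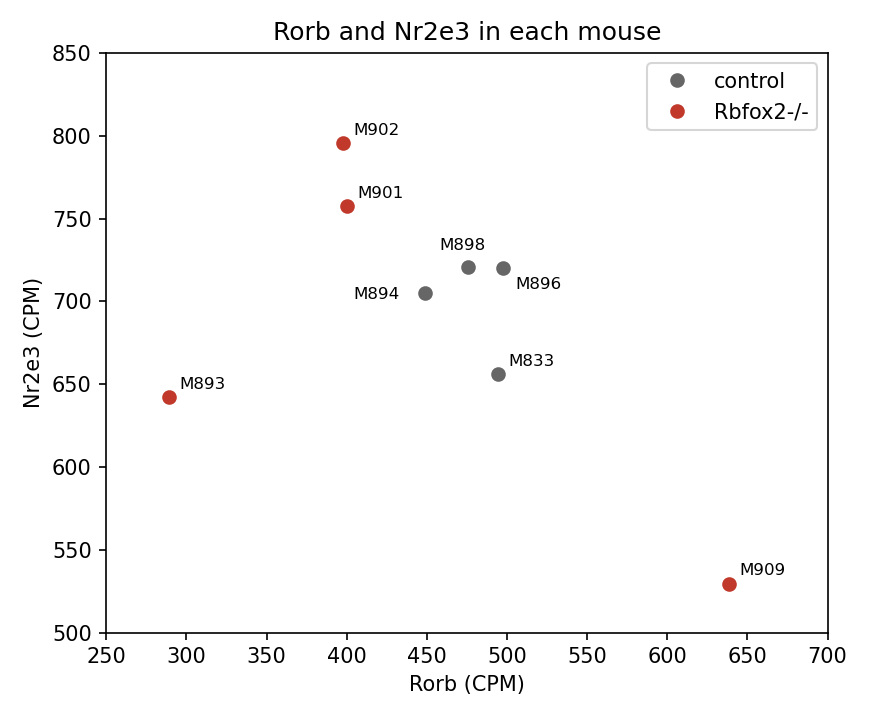
*Rorb* against *Nr2e3* in each mouse (CPM, linear axes that do not start at 0), controls in grey and *Rbfox2*-/- mice in red. The 4 controls sit together between 449 and 498 CPM of *Rorb*, whereas the *Rbfox2*-/- mice M893 and M909 lie at opposite ends for *Rorb* and M902 and M909 at opposite ends for *Nr2e3*.

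*Thrb* (chr14:17660261-18038090, plus strand) encodes thyroid hormone receptor beta, whose cone isoform is needed for medium-wavelength opsin. Its 6 coding transcripts were counted together, so the cone isoform could not be separated. Controls had 125, 109, 118 and 115 CPM and *Rbfox2*-/- mice 109, 119.5, 112.5 and 133 CPM. M909 alone lay above every control. The log2 fold change was 0.02 (95% interval -0.12 to 0.17), and it was -0.035 without M909. Without M901 and M902 it was 0.053 (edgeR unadjusted p = 0.544).

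**Figure D4:**
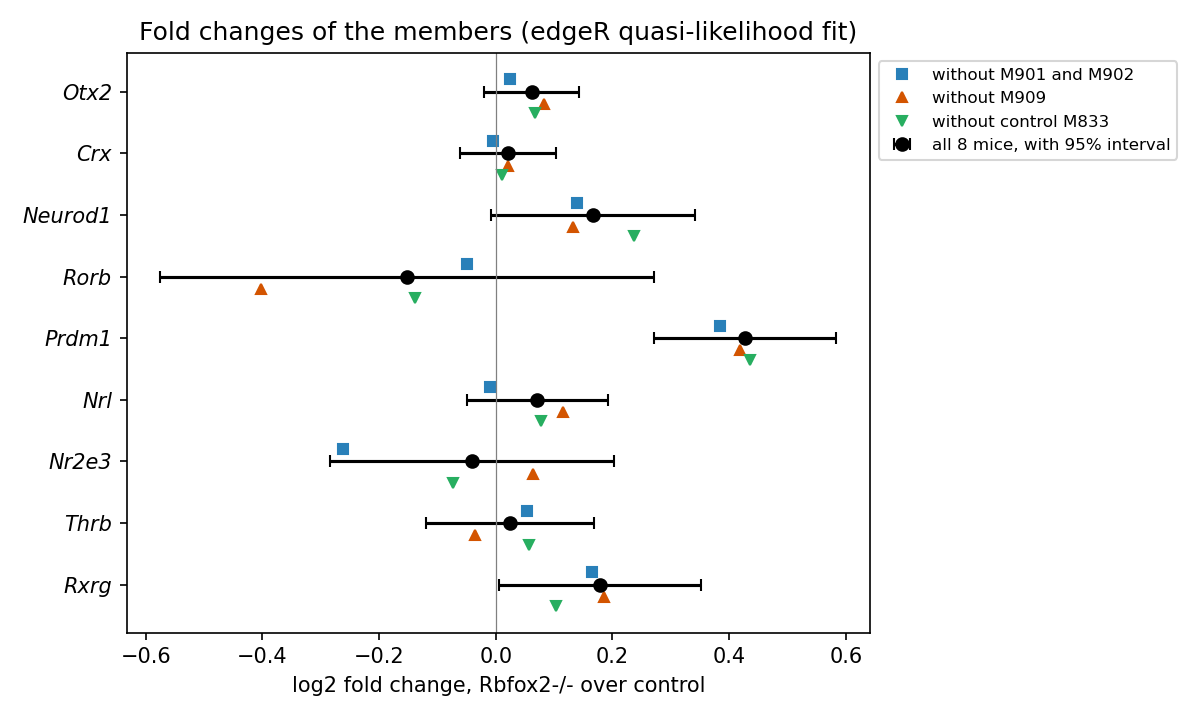
log2 fold change of each member (*Rbfox2*-/- over control) from edgeR with its 95% interval over 8 mice (black), and the same without M901 and M902 (blue), without M909 (orange) and without control M833 (green). *Prdm1* stays between 0.38 and 0.44 in these fits, and *Rorb* and *Nr2e3* move most.

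Across the 8 mice, 36 pairs of members were compared by the correlation of their log2 CPM, of which 3 had an exact permutation p under 0.05 by Pearson's r, 3 by Spearman's rho, and 0 an adjusted p under 0.05 by either. *Nrl* and *Nr2e3* were 1 of the 3 by r (Pearson r 0.70, permutation p = 0.0491, adjusted p = 0.518, Spearman rho 0.69, permutation p = 0.0694, adjusted p = 0.357). Their r was 0.24 without M902 and M909, the mice farthest from the median of *Nrl*. Leaving out the farthest mice narrows the range, so such a value cannot show which mice a relation rests on. *Rorb* and *Thrb* had r 0.76 (rho 0.69) and r 0.34 without M893 and M909, while *Otx2* and *Nrl* had r 0.80 (rho 0.74) and r 0.94 without M902 and M898. *Rorb* ran against *Nrl* (r -0.58, permutation p = 0.128, rho -0.79, permutation p = 0.0279) and against *Otx2* (r -0.56, permutation p = 0.147, rho -0.74, permutation p = 0.0458), with adjusted p = 0.518 for r and 0.357 for rho in both pairs. Without the mice farthest in the first gene, r was -0.80 for *Rorb* with *Nrl* (without M893 and M909) and -0.81 for *Otx2* with *Rorb* (without M902 and M898).

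Among 10160 other genes with a mean of at least 10 CPM, those with the most similar profile over the 8 mice were named for each member. These were *Cabp4*, a photoreceptor synaptic calcium-binding protein, and *Tube1* for *Otx2* (r 0.98 for both), *Dnajc30* and *Exosc9* for *Crx* (r 0.94 and 0.91), *Cdk5rap2* and *Mmd* for *Neurod1* (r 0.99 for both), and *Mrpl48* and *Mina* for *Prdm1* (r 0.97 for both). For *Rorb* they were *Tcaim* and *Bzw2* (r 0.98 and 0.97), for *Nrl* *Prpf3* and *Imp4* (r 0.99 and 0.98), for *Nr2e3* *Ndst3* and *Ptcd1* (r 0.93 for both), for *Thrb* *Celf2* and *Clcn3* (r 0.94 for both), and for *Rxrg* *Tubb2b* and *Syndig1l* (r 0.97 and 0.96). Each named gene was taken from the top of 10160, and the values are given as a description.

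The genes around these factors were examined as 7 lists, in which no gene had an adjusted p under 0.05 in the edgeR quasi-likelihood test and 27 of 113 tested (23.9%) had an unadjusted p under 0.05, against 13.3% of all genes. DESeq2 gave 11 of the list genes an adjusted p under 0.05, against 2.77% of all genes. Of these 11, 6 were rod genes and 2 cone genes. At an unadjusted p under 0.05 in edgeR, 6.42% of all genes were higher and 6.87% lower. Of 13 rod genes, 13 had a higher mean (12 with library size scaling only, with 1 surrogate variable, without M901 and M902, and without M901 or M894 alone) and 8 an unadjusted p under 0.05 (median log2 fold change 0.12), among them *Gngt1*, a rod transducin subunit (0.23), and *Nxnl1*, which encodes rod-derived cone viability factor (0.20). Of 12 cone genes, 4 were higher and 1 lower at this threshold (median 0.11), and of 21 genes shared by rods and cones 7 were higher and 0 lower (median 0.08), with *Impg2* at 0.19 and *Aipl1* at 0.14 (edgeR unadjusted p = 0.0605 for *Aipl1* without M901 and M902). Without M901 and M902 the rod list had 5 genes under the unadjusted threshold (median 0.08) and the shared list 1, with 12 of its 21 genes higher instead of 16 (median 0.06). With 1 surrogate variable the rod list had 3 (median 0.07) and the shared list 0 higher and 1 lower (median 0.04). *Gngt2*, the cone transducin gamma subunit, had the lowest p of the lists (log2 fold change 0.26, edgeR unadjusted p = 5.07e-05, adjusted p = 0.0568). Over all lists, 13 genes were under the unadjusted threshold with 1 surrogate variable, of which 9 were among the 27, and 15 without M901 and M902, of which 12 were, while the share of all genes was 6.45% and 6.01%. Beside these values, the summed CPM of 6 Müller glia markers was 4322 to 4691 in controls and 4044 to 4254 in *Rbfox2*-/- mice. That of 6 bipolar cell markers was 1192 to 1303 and 1156 to 1218. A sum follows its most abundant genes. The median log2 fold change was -0.017 over the Müller glia markers and -0.085 over the bipolar cell markers. Of the 6 in each list, 1 and 2 were lower and 0 higher at an unadjusted p under 0.05 in edgeR. The part of these markers in the photoreceptor values was not tested.

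The cone opsins, which Thrb and Rxrg pattern, had log2 fold changes of opposite sign, and neither had an adjusted p under 0.05 in the edgeR quasi-likelihood test. *Opn1sw*, the short-wavelength opsin, had 333 to 388 CPM in controls and 384 to 474 CPM in *Rbfox2*-/- mice (log2 fold change 0.26, edgeR adjusted p = 0.192, DESeq2 adjusted p = 0.0104), and the log2 fold change was 0.17 without M901 and M902. *Opn1mw*, the medium-wavelength opsin, had 92.6 to 117 CPM and 78.3 to 106 CPM (-0.23, edgeR adjusted p = 0.353), and -0.21 without M901 and M902 (edgeR unadjusted p = 0.146). The ratio of *Opn1sw* to *Opn1mw* counts was 3.48, 4.19, 2.84 and 3.06 in controls and 5.31, 4.84, 5.29 and 3.63 in *Rbfox2*-/- mice. M909 lay among the controls in this ratio and the other *Rbfox2*-/- mice above them.

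The lists of partners held few genes at this unadjusted threshold. Among 20 photoreceptor cofactors only *Pias3*, a SUMO ligase that acts with Nr2e3 in rods, had an unadjusted p under 0.05 (log2 fold change 0.16), and without M901 and M902 it had 0.12 (edgeR unadjusted p = 0.113). Of 19 partners of thyroid hormone and retinoid receptors only *Dio3*, which inactivates thyroid hormone, did so (3.80 ± 0.877 CPM in controls, 1.43 ± 1.12 in *Rbfox2*-/- mice, SD, n = 4). Its log2 fold change was -1.41, and -0.67 without M901 and M902. Of 16 tested progenitor and fate factors, *Hes5*, a Notch effector of Müller glia and progenitors, and *Neurog2*, a proneural factor, were higher (0.50 and 0.36) and *Six6*, an eye field factor, was lower (-0.13). Without M901 and M902 the unadjusted p of *Neurog2* and *Six6* was 0.173 and 0.142 in edgeR. Of 12 bipolar cell factors, which Prdm1 represses in precursors, 2 were lower and 0 higher at an unadjusted p under 0.05. One of them was *Isl1*, a LIM homeodomain factor (log2 fold change -0.19), at 65.6 to 69.6 CPM in controls and 57.0 to 61.6 CPM in *Rbfox2*-/- mice. The median log2 fold change of these 12 was -0.01, and -0.07 without M901 and M902, where that of all genes was -0.0043.

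**Figure D5:**
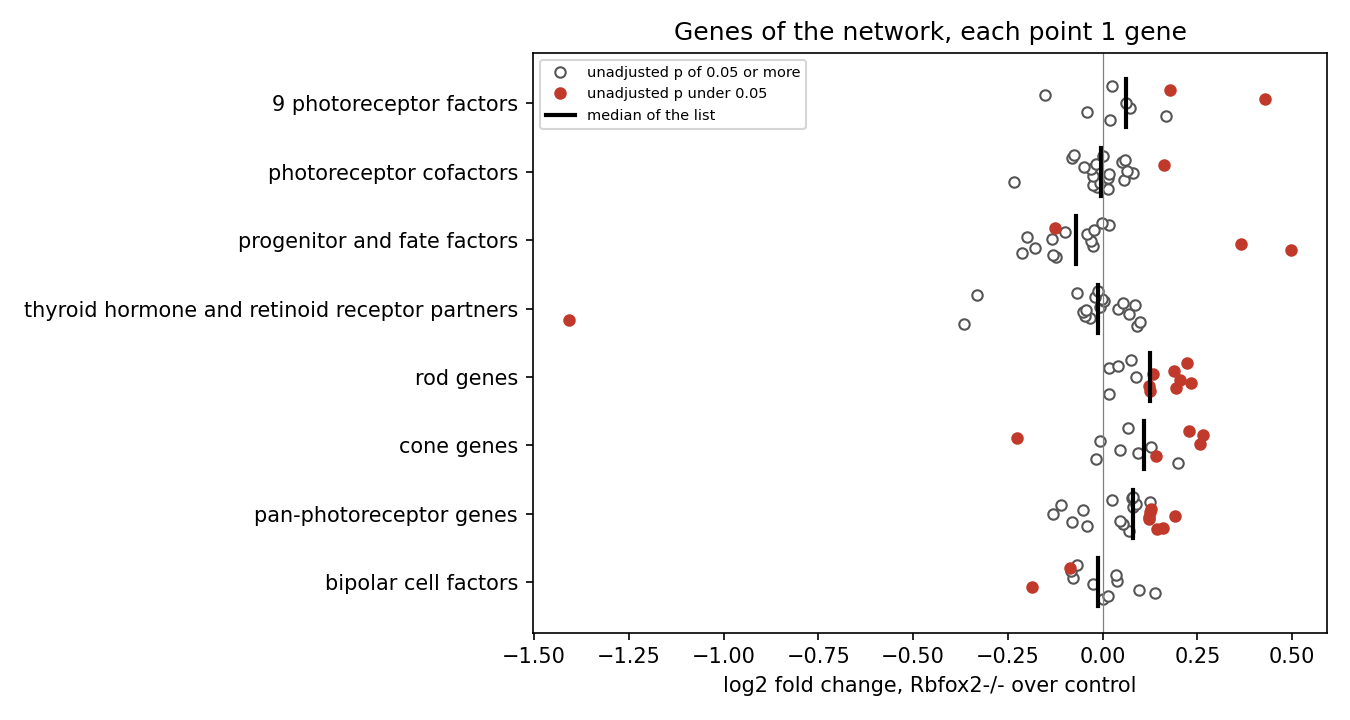
log2 fold change (*Rbfox2*-/- over control) of each gene in the 9 members and the 7 lists, each point 1 gene, red where the unadjusted p was under 0.05, black bar at the median. The rod, cone and shared photoreceptor lists lie to the right of 0 on average, and *Dio3* at -1.41 is the farthest point.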

How the data were processed

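Retinal poly(A) RNA of 4 control and 4 *Rbfox2*-/- mice was sequenced, 1 library per mouse. Per the study's methods, the authors aligned paired reads to mm10 with STAR and counted uniquely mapped fragments with HTSeq, naming both a RefSeq and an Ensembl annotation, and the submitters' processing notes name CASAVA 1.8.2 and edgeR. The authors deposited counts per gene without normalization, which were used for all tests, and FPKM values per gene, which were used only to order levels between genes. The deposited table also holds log2 fold changes and p-values that the authors made with their own comparison, and a signal per mouse scaled by the authors, and none of these was used. Each listed gene reached 5 counts in 4 or more mice.

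Counts were filtered with filterByExpr, scaled by TMM and compared by the quasi-likelihood test in edgeR 4.0.16 (R 4.3.3) with Benjamini-Hochberg adjustment over 16797 genes. The procedure was tested on simulated counts. SE is the log2 fold change over the square root of F. Exact permutation tests ran over the 70 groupings. Alternatives were DESeq2 1.42.0, limma-voom 3.58.1, edgeR's likelihood ratio test, other normalizations and count filters, 1 surrogate variable (sva 3.50.0), leaving out each mouse, and leaving out M901 and M902. Library pairs differed by more than sampling noise. Gene positions are from GENCODE M21 and promoters from RefSeq, both on GRCm38.

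The members and the lists were chosen with earlier results of these data known. Named were all 9 members, *Rbfox2*, *Xist*, for each list the 2 genes with the lowest p under 0.05 in each direction, and the 2 genes most like each member over the 8 mice. Some items that this rule or the labels would name are not reported here.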

Additional observations from a re-analysis of the deposited data

How the results depend on the processing

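*Prdm1* was the only member called at an adjusted p under 0.05 in any alternative, 1 member with DESeq2 and 1 with edgeR's likelihood ratio test against 0 in the quasi-likelihood test. Over the 18 alternatives its log2 fold change ranged from 0.38 to 0.47 and its adjusted p from 1.10e-05 to 0.486. The count of members with an unadjusted p under 0.05 was 2 (*Prdm1* and *Rxrg*), 3 with DESeq2, which added *Neurod1*, 1 with library size scaling only, with the likelihood ratio test and with upper-quartile normalization, and 1 to 4 when single mice were left out. It was also 2 with 1 surrogate variable and without M901 and M902, but there the members were *Prdm1* and *Nr2e3*. Members whose groups did not overlap numbered 2, and 2 to 5 without single mice, with 5 without M909. A smaller group separates more easily by chance, and the share of all genes without overlap is not given for the fits without single mice. Whether the rise from 2 to 5 exceeds that of all genes was not tested. List genes with an unadjusted p under 0.05 numbered 27, 13 with 1 surrogate variable (9 of them among the 27), 15 without M901 and M902 (12 among the 27), and 18 to 37 without single mice. The share of all genes under this threshold also moved. It was 13.3% in the main fit, 6.45% with 1 surrogate variable and 6.01% without M901 and M902. It was 12.5% without M893, 17.8% without M909, where 4 members were counted, and 17.6% without M833, where 37 list genes were. For the other fits this share is not given. Directions turned for values near 0. The log2 fold change of *Crx* was -0.0010 with 1 surrogate variable and -0.0042 without M901 and M902, that of *Nrl* -0.0083 and -0.011 in the same fits, that of *Nr2e3* -0.12 to 0.063 without single mice (0.063 without M909), and that of *Thrb* -0.035 without M909 and -0.0072 without M894. The cause was not tested. *Rbfox2* stayed between -1.43 and -1.38. No paired analysis was possible because the labels number no replicates across the groups. Each member had at least 1507 counts in every mouse.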
